A study of Mus musculus with 9 samples.

Results

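The whole interval from the first to the 14th day after birth was compared in cells sorted as keratinocytes from mouse skin, using 6 of the 9 libraries of the study and the 23346 autosomal genes (chromosomes 1 to 19) among the 24532 genes counted. All libraries came from C57BL/6 mice, with no treatment named. The 3 libraries called day 1 here carry titles of postnatal day 1, but their columns of values are headed D0. No title names day 0 and the 2 later ages have columns under their own names, so the D0 columns were read as day 1. The 3 libraries of day 14 carry that day in both places, and the 3 of day 7 entered only the estimate of spread. Per the labels' protocols, viable cells (negative for propidium iodide) without the leukocyte antigen CD45.2 were sorted from fresh skin. Nothing in the gate picks out keratinocytes, and other skin cells that lack CD45.2 could have passed it. Whether the 3 libraries of an age were separate animals, pools or repeats is not stated, so that the p-values speak only to how much these libraries vary, which may be technical.

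Epidermis is renewed by basal cells that rest on a basement membrane, and their daughters leave it, stop dividing and build the cornified barrier. In newborn mice the skin is still growing, hair follicles are being formed and pigment cells are moving into them. By the end of the second postnatal week the first coat has grown and the epidermis has thinned. Transcription factors set which genes these cells express, surface receptors set which signals they can receive, and secreted factors carry their own signals and matrix to neighbouring cells.

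The labelled cell type was checked first. The basal keratins Krt5 and Krt14 held the 2 highest mean levels of all autosomal genes at day 1, and Krt5 also led at day 14, in TPM, a level that allows for transcript length. The summed TPM of 4 basal markers ran from 50047 to 52926 at day 1 and from 33105 to 37025 at day 14. Markers of other cells were present at lower levels. Melanocyte markers summed to 432 to 469 TPM at day 1 and to 6.49 to 9.47 at day 14, and all 10 fell, with Cdh19 and Oca2 at 0 counts at day 14. Leukocyte markers summed to 10.6 to 12.04 TPM at day 1 and to 32.4 to 36.0 at day 14, 7 of the 10 could be tested and all 7 rose, and the count of Ptprc, which encodes CD45, was 0 to 4 and then 6 to 9 per library. T cell markers summed to 12.1 to 14.4 and then to 45.7 to 50.8 TPM, with Cd3e at 0 counts at day 1 and 4 to 10 at day 14. Nearly all of that sum was Thy1, at 12.8 and then 46.8 TPM, and only Thy1 and Cd3g of the 6 could be tested. Both rose, and the Cd3g call was lost without number 4 or 6 of day 1 or number 5 of day 14 (adjusted p from 0.058 to 0.0642). Endothelial markers summed to 5.07 to 7.07 and then to 1.94 to 2.87 TPM, with Cldn5 at 0 counts at day 1 and Emcn at day 14. Of the 5 tested, Egfl7 fell from 5.03 to 0.556 TPM, Plvap rose from 0.0681 to 0.663 TPM and 3 (Cdh5, Esam and Pecam1) were not called. The fibroblast and stroma list went from a sum of 192 to 205 TPM to one of 850.4 to 914, with Pi16 at 0 counts at day 1 and Dpep1 at day 14. Most of that list is Gsn, which keratinocytes also express. Fewer cells of a type and less RNA per cell cannot be told apart in these bulk libraries. The Y-linked Ddx3y had 1781 to 3456 counts in the day 1 libraries and 0 in those of day 14. The X-linked Xist had 53509 to 104994 and 116572 to 142283. Each day 1 library thus held RNA of both sexes, and so of more than 1 animal, while no day 14 library held Ddx3y. The sex of the animals and their age therefore cannot be told apart in this comparison. For that reason only autosomal genes are described. Library totals ran from 55589077 to 61700574 reads over the 6 libraries, and log2 CPM correlated at 0.988 to 0.990 within a day and at 0.885 to 0.891 between the days, across genes, which are not independent.

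Most of the measured transcriptome differed between day 1 and day 14. Of 14011 autosomal genes that passed the filter on low counts, 74.0% were called at an adjusted p under 0.05, 35.6% higher and 38.4% lower at day 14. In numbers, 4988 genes rose and 5382 fell. A fold of more than 2 was passed by 2067 of the rises and 1998 of the falls, and a fold of more than 8 by 405 and 622. The values of the 3 libraries of 1 day lay wholly above those of the other for 10855 genes (77.5%). The median log2 change was -0.046. With so many calls, the direction of small changes depended on how libraries were scaled. Of the called genes 48.1% were higher on libraries scaled with TMM factors, and 32.1% when only library totals were used, which moved the median log2 change to -0.318. Changes of less than about that size are therefore relative to the scaling.

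The most abundant transcripts were largely the same ones at both ages, and the order within them changed. Of the 20 genes with the highest mean TPM at each day, 13 were shared, of the top 100 78 and of the top 500 368. The top 20 of day 1 held 14.4% ± 0.57 of autosomal TPM at day 1 (SD, n = 3), and the top 20 of day 14 held 13.0% ± 0.072 at day 14. From 402 to 438 genes made up the upper 50% of TPM in each day 1 library and from 375 to 401 in each day 14 library. The number of genes at 1 TPM or more was 12067 to 12187 at day 1 and 11677 to 11768 at day 14. With 3 libraries against 3, an exact permutation test of such a single value cannot go below p = 0.1.

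Within the top 20 of day 1, 6 genes fell, 8 rose and 6 were not called, and within the top 20 of day 14, 14 rose, 2 fell and 4 were not called. Each set was ranked at 1 of the days compared, which tilts the day 1 set toward falls and the day 14 set toward rises. The calls are on library-scaled counts, so that Ptma, Rps24 and Rplp0 were called higher though their mean TPM was lower at day 14. Krt5 was first at both ages, with 24758, 26290.0 and 24990.0 TPM in the day 1 libraries and 14165, 15017 and 16217 in those of day 14. Its partner Krt14 had 19107, 18703 and 19326 TPM at day 1 and 8250.0, 8972 and 9487 at day 14, and went from rank 2 to rank 4. The 2 basal keratins were lower in every day 14 library than in any day 1 library. On library-scaled counts the falls were 1.42-fold for Krt5 and 1.81-fold for Krt14. Krt15, a basal keratin that also marks follicle stem cells, moved the other way. It had 6024, 7793 and 6899.6 TPM at day 1 and 10490.0, 10258 and 11068 at day 14, and passed from rank 6 to rank 2. Its library-scaled counts rose by 0.86 ± 0.088 on the log2 scale (SE, adjusted p = 9.6e-06). Of the suprabasal pair, Krt1 fell from 6822 ± 1283 to 2938 ± 28.8 TPM (rank 7 to 28, adjusted p = 2.5e-04). Krt10 had 6770.1 ± 1508 and 7166 ± 455 TPM and was not called (adjusted p = 0.13). Most of the suprabasal list moved otherwise. Among its 9 markers 7 rose (77.8%, against 35.6% of all genes tested), and Krt1 was the 1 that fell (11.1%, against 38.4%). Among 13 tested granular and cornified markers 61.5% rose and 23.1% fell. The summed TPM of that list was 404 to 547 at day 1 and 281 to 341 at day 14.

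The genes that left the head of the list were a growth-related RNA and a protease inhibitor cluster. H19, the imprinted noncoding RNA next to Igf2 (chr7:142575530-142578146), had rank 4 at day 1, with 6862, 8475 and 8922 TPM. At day 14 it had 179, 164 and 244 TPM and rank 737. It fell by 34.9-fold on library-scaled counts (log2 change -5.13 ± 0.22, adjusted p = 5.1e-07), and the libraries of the days did not overlap. Stfa3 and BC100530, stefin A genes that encode inhibitors of cysteine proteases, fell from ranks 5 and 23 to ranks 1048 and 3629. Stfa3 had 6801, 8599.5 and 7971 TPM at day 1 and 151, 152 and 140.4 at day 14. BC100530 went from 3170.1 ± 76.6 to 47.7 ± 8.5 TPM. The stefin A genes are near copies of each other, so the split of reads among them is uncertain. These 3 were the genes of the day 1 top 100 that lay beyond rank 500 at day 14, a limit chosen after the ranks were seen.

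**Figure D1:**
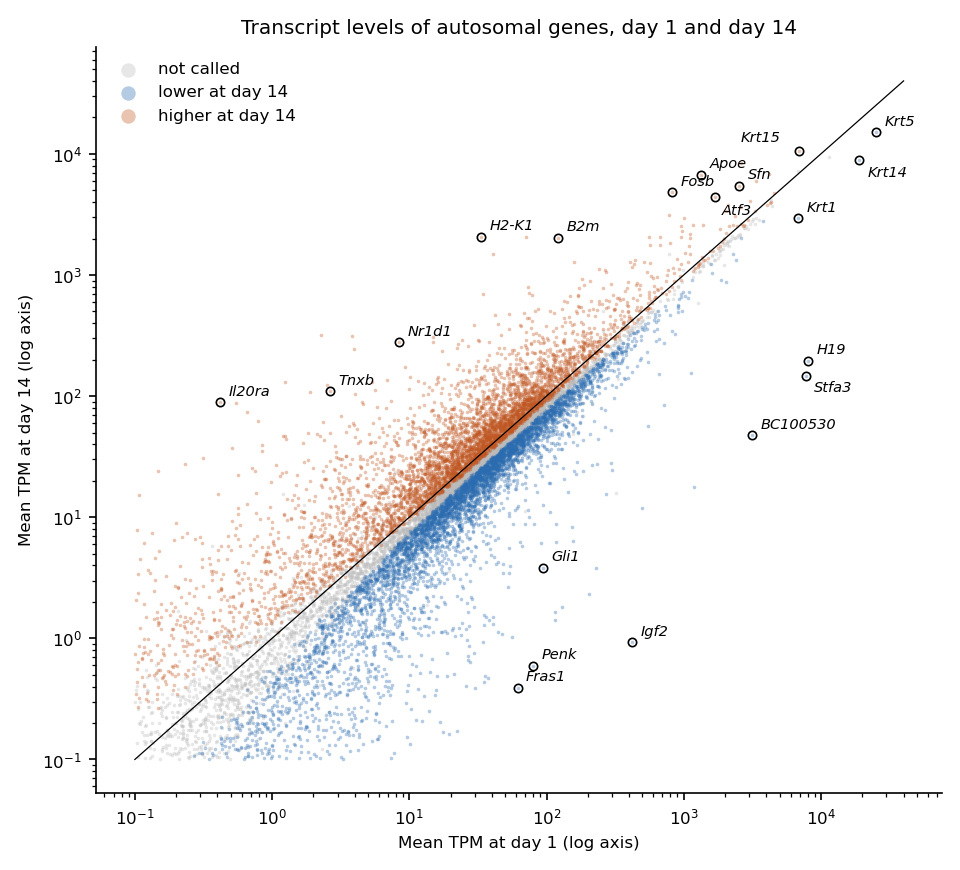
Mean TPM of 13026 tested autosomal genes with at least 0.1 TPM at both days, day 1 on the x axis and day 14 on the y axis, both on log axes; each point is a gene, coloured by its call, and the line marks equal levels. H19, Stfa3 and BC100530 lie far below the line among the most abundant genes of day 1, and H2-K1 and B2m lie above it.

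The 4 genes that entered the top 100 from beyond rank 500 were Krt77, Serpinb2, H2-K1 and B2m. Krt77, a suprabasal keratin, went from 71.1 ± 18.1 to 2075 ± 198 TPM and from rank 2451 to rank 57. Serpinb2, a serine protease inhibitor of the epidermis, went from 41.1 ± 7.9 to 1486 ± 204 TPM. Within the top 20, the new entries at day 14 were Ahnak, Apoe, Sfn, Fosb, Atf3, Anxa2 and Perp. Apoe, which encodes a lipid-carrying apolipoprotein, had 1190.4, 1560.2 and 1279 TPM at day 1 and 6393, 7008 and 6779.9 at day 14, and passed from rank 99 to rank 8. Sfn, the 14-3-3 protein of stratified epithelia, went from 2536 ± 208 to 5464 ± 119.8 TPM, and Perp, a desmosome protein, from 2096 ± 100.3 to 3791 ± 233. Every day 14 library was above every day 1 library for all 3 of these genes. Of the translation genes in the day 1 top 20, Eef1a1, Rps2, Rps9 and Rps18 were not called, Rpl41 fell, and Rps24, Rplp0 and Rplp1 rose by 0.12 to 0.25 on the log2 scale, a direction that turned with library totals alone. The Rps24 call was also lost with no filter, limma-voom, 6 libraries, autosomal genes alone and the replicate block (adjusted p from 0.0505 to 0.124), and without any 1 library other than number 6 of day 14 (adjusted p from 0.119 to 0.24).

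Among called genes with a mean of at least 10 CPM (counts per 1000000 on TMM-scaled libraries) at 1 of the days and no overlap between them, taking at most 2 per family, the largest rises began from very low levels at day 1. H2-Q9, H2-Q6, Skint5 and Calcb had 0 counts in all 3 day 1 libraries, so only a lower bound can be given, taken against 3 counts per library. The class I genes H2-Q9 and H2-Q6 reached 34.7, 41.9 and 39.4 CPM and 25.1, 32.8 and 32.4 CPM, at least 819.9-fold and 638-fold higher. These near-identical genes may have exchanged reads with each other and with H2-Q7. Skint5, of a keratinocyte family that resembles immunoglobulins and is known for Skint1's role in the selection of epidermal gamma delta T cells, reached 21.5, 19.4 and 19.9 CPM, at least 429.7-fold higher. Measured at both ages, the receptor subunit Il20ra, the bicarbonate transporter Slc4a8, the organic anion transporter Slco2b1, the sulfotransferase Gal3st4, the beta-defensin Defb6 and acetylcholinesterase Ache followed. Ache (chr5:137288247-137294466) had 0.651, 0.515 and 0.521 CPM at day 1 and 74.4, 77.9 and 74.7 at day 14, 134-fold more (log2 change 7.06 ± 0.095, adjusted p = 1.9e-13).

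By the same conditions, the largest falls ended near 0. Hmga2, a chromatin protein of embryonic and growing tissues, had 20.2, 12.8 and 15.5 CPM at day 1 and 0, 0.0377 and 0.0398 at day 14. Igf2bp1, an RNA-binding protein of the fetal period, had 35.7, 28.5 and 37.8 CPM and then 0.14, 0.207 and 0.418. The groups did not overlap for either gene, and Igf2bp1 was 132-fold lower at day 14. Tyr, the enzyme that starts melanin synthesis, fell from 33.4 ± 3.13 to 0.164 ± 0.104 CPM (SD, n = 3), together with the whole melanocyte list given above. Others among the largest falls were Mpped1, the adhesion molecule Ncam1, the aldehyde oxidase Aox4 and Brinp1, with means from 15.2 (Mpped1) to 47.4 CPM (Aox4) at day 1 and at most 0.197 CPM at day 14.

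Among transcription factors there were more rises than falls. Of 746 autosomal genes on the list, 502 were tested, 229 rose (45.6%, against 35.6% of all genes tested) and 171 fell (34.1%, against 38.4%). Their median log2 change was 0.15, against -0.046 over all genes tested. This balance depended on the scaling, since 185 rose and 221 fell when only library totals were used. The summed TPM of the list was 34380 to 38980 at day 1 and 56994 to 60715 at day 14. Much of this rise lay in the leucine zipper family, which includes Fos, Fosb, Jun and Atf3. Its sum was 13214 to 15852 TPM at day 1 and 28004 to 30630 at day 14. Mean sums of homeobox and paired box factors and of Sox and Tcf/Lef factors were lower at day 14, and those of the other families were higher.

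The balance of rises and falls varied from family to family, beside 35.6% of all genes tested that rose and 38.4% that fell. Among factors that act downstream of cytokines and cell stress (Stat, Irf, Rel and Nfat), 19 of 25 rose and 2 fell (Irf3 and Nfatc4), and among forkhead factors 15 of 21 rose and 4 fell (Foxd3, Foxi3, Foxk2 and Foxm1). Leucine zipper factors had 30 rises and 9 falls among 46, and nuclear receptors 18 rises and 6 falls among 29. In the other direction, Sox and Tcf/Lef factors had 12 falls and 3 rises among 18, and homeobox and paired box factors 40 falls and 22 rises among 85. The 3 of the Sox and Tcf/Lef group that rose were Sox6, Sox7 and Sox21. Each of these majorities kept its direction with library totals alone. Klf, Sp, Gli and other zinc finger factors had 55 rises and 46 falls among 129, which became 42 and 59 with library totals alone. Helix-loop-helix factors had 28 rises and 14 falls among 55, and 23 and 21 with library totals alone.

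**Figure D2:**
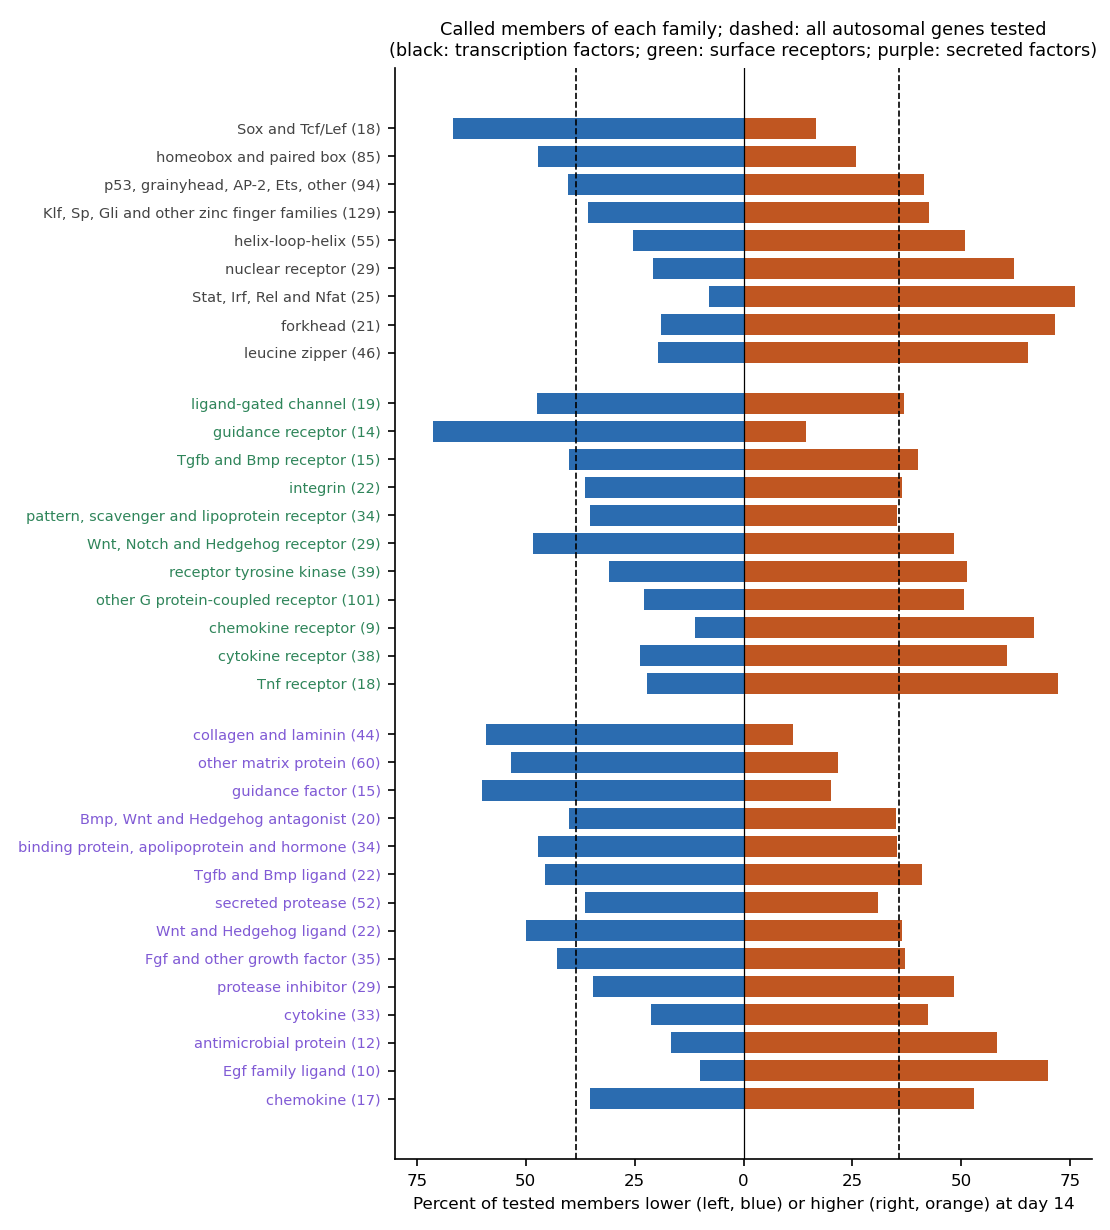
Percent of the tested members of each family that were higher (orange, right) or lower (blue, left) at day 14, with the number tested in brackets; families are grouped as transcription factors, surface receptors and secreted factors and ordered by median log2 change. Dashed lines give the 35.6% higher and 38.4% lower of all autosomal genes tested. Stat, Irf, Rel and Nfat factors and Tnf receptors lie far to the right, and Sox and Tcf/Lef factors, guidance receptors and collagens and laminins to the left.

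By mean TPM, the same 8 factors led at both ages, Fos, Fosb, Jun, Junb, Jund, Atf3, Egr1 and Nr4a1. Most are known as immediate early genes, and the Fos, Jun and Atf products bind DNA as the dimers called AP-1. Of these 8, Egr1 was not called and 7 rose. Fos had 4488, 3684 and 4334 TPM at day 1 and 6781, 6384 and 7198 at day 14, and Fosb 911, 736 and 825 TPM at day 1 and 4367, 4597 and 5442 at day 14. Fosb rose 6.9-fold (adjusted p = 5.9e-05) and Fos 1.93-fold (adjusted p = 0.0018) on library-scaled counts, and for both all day 14 libraries lay above all day 1 libraries. Atf3 and Jun rose 3.09-fold and 1.63-fold. Such genes are also known to respond to the dissociation of tissue. Of 22 genes listed for heat shock and handling, 12 rose and 5 fell (Gadd45g, Hspd1, Hspe1, Hspa1a and Hspa1b), with Zfp36, which destabilises mRNA, at 2024 to 3138 CPM among the rises and Hspa1b at 2684 to 1756 CPM among the falls. The shares of this list were 54.5% higher and 22.7% lower, against 35.6% and 38.4% of all genes tested. With library totals alone 9 of these genes rose and 7 fell, and the Zfp36 call was lost (adjusted p = 0.0815). Reads of Hspa1a and Hspa1b, near-identical copies, may have been split between them. The part of handling in the AP-1 values was not tested.

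Among factors of at least 5 CPM at 1 of the days, the largest rise was that of Nr1d1 (chr11:98767932-98775377), the nuclear receptor also called Rev-erb alpha, a repressor in the circadian clock. It had 9.82, 8.95 and 8.48 CPM at day 1 and 347, 332 and 380.0 at day 14. The libraries of the days were far apart, with a 38.8-fold difference (log2 change 5.28 ± 0.075, adjusted p = 1.9e-13). Hlf, an output factor of the clock, had 4.56, 3.04 and 3.53 CPM and then 113, 104 and 109, and rose 29.1-fold. Npas2, a partner of the clock activator Arntl, rose from 2.34 ± 0.293 to 27.2 ± 1.73 CPM. Of 12 clock factors of the list, grouped after their values were seen, 11 rose and 1 fell. Of all genes tested 35.6% rose and 38.4% fell. The Per and Cry genes of the clock were not in this group. The further rises were Nr1d2 (33.6 to 141 CPM), Rora (97.6 to 621), Arntl (21.7 to 90.7), Clock (48.6 to 88.7), Dbp (5.65 to 26.9), Tef (40.8 to 147), Nfil3 (26.6 to 133) and Bhlhe40 (285 to 754). Bhlhe41 fell from 3.77 to 1.93 CPM. Activators and repressors of the clock were both among the rises. The hour at which skin was collected is not given in the sources used here, so its part cannot be told apart from age.

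Zinc finger repressors and an orphan nuclear receptor made up most of the other large rises. Bcl6, a repressor best known from lymphocytes, had 34, 26.6 and 32.5 CPM at day 1 and 343, 429.9 and 448 at day 14, 13.1-fold more (adjusted p = 6.5e-09). Ikzf2, also called Helios, went from 15.1 ± 0.433 to 231 ± 6.41 CPM and Zbtb16 from 10.3 ± 2.48 to 117 ± 11.6 CPM. Nr4a3, an inducible nuclear receptor, rose from 5.37 ± 0.71 to 117 ± 6.19 CPM, and Dlx5, a homeobox factor, from 1.02 ± 0.152 to 12.9 ± 1.03 CPM. None of these had overlapping libraries. Among well known factors of epidermal differentiation, picked after their values were seen, Klf4 rose from 483 to 1795 CPM, Ovol1 from 62.8 to 308, Grhl3 from 40.6 to 213, Gata3 from 169 to 441 and Casz1 from 152 to 524. Trp63, the master factor of stratified epithelia, changed less. It had 799, 726 and 753 CPM at day 1 and 978, 968 and 985 at day 14, 1.29-fold more (adjusted p = 1.0e-05), a call that was lost with library totals alone (adjusted p = 0.0925).

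**Figure D3:**
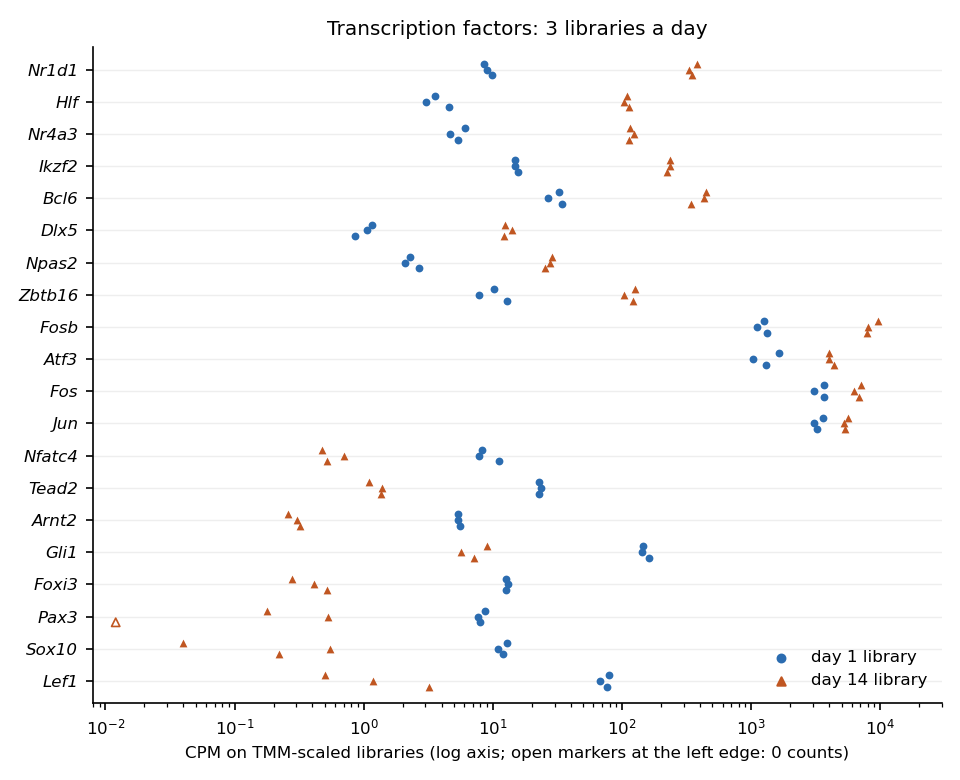
CPM of 20 transcription factors in each library of day 1 (blue circles) and day 14 (orange triangles) on a log axis, ordered by log2 change; an open marker is a library with 0 counts. The days do not overlap for any of the 20, and Pax3 has 1 day 14 library at 0.

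At the same minimum, the 8 largest falls were those of Lef1, Gli1, Foxi3, Tead2, Arnt2, Nfatc4, Sox10 and Pax3. Lef1, the Wnt-responsive factor of hair placodes and matrix, had 76.3, 67.4 and 79.1 CPM at day 1 and 3.2, 1.19 and 0.497 at day 14. The 3 day 14 values spread widely but all lay far below day 1, 45.8-fold on average (adjusted p = 1.1e-04). Hair matrix and shaft markers did not fall as a list, with 5 rises (45.5%) and 2 falls (18.2%) among 11 tested. Of all genes tested 35.6% rose and 38.4% fell. The summed TPM of that list was 28.2 to 29.8 at day 1 and 28.5 to 56.1 at day 14. Gli1, a transcriptional target and effector of Hedgehog signalling (chr10:127329882-127341579), had 162, 142 and 145 CPM and then 7.19, 5.62 and 8.97, 20.6-fold less (adjusted p = 1.3e-08). Its relative Gli2 fell from 126 to 10.7 CPM and Gli3 from 60 to 44.1. Foxi3, a forkhead factor of hair and tooth placodes, fell from 12.8 ± 0.362 to 0.404 ± 0.121 CPM. Tead2, a partner of the growth regulator Yap, fell from 23.1 ± 0.425 to 1.28 ± 0.158 CPM, and Arnt2 and Nfatc4 from 5.41 and 8.99 CPM to under 1 CPM. Sox10 and Pax3, factors of pigment and neural crest cells, fell from 11.9 ± 0.902 to 0.269 ± 0.257 CPM and from 8.11 ± 0.54 to 0.236 ± 0.268 CPM. The melanocyte markers fell with them, and the part of a lower share of pigment cells in these falls was not tested. Of the other homeobox genes, Lhx2 fell from 47.8 to 3.66 CPM and Irx4 from 305 to 29.8, while Irx3 and Irx5 rose from 30.2 to 112 and 43.6 to 148.

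Surface receptors also rose more often than they fell. Of 594 on the list 338 were tested, 162 rose (47.9%) and 108 fell (32.0%), beside 35.6% and 38.4% of all genes, with a median log2 change of 0.28. With library totals alone 136 rose and 126 fell. Receptors for signals of immunity and injury leaned upward. Of 18 Tnf receptors tested 13 rose and 4 fell, of 38 cytokine receptors 23 rose and 9 fell, and of 9 chemokine receptors 6 rose and 1 fell (Cxcr4, from 11.8 to 3.57 CPM). The Tnf receptors that fell were Edar, Relt and Tnfrsf22, and Tnfrsf11b, which encodes the secreted RANK ligand decoy osteoprotegerin (2.99 to 0.559 CPM). Guidance receptors, known from axon growth, leaned downward, with 10 falls and 2 rises (Plxnb2 and Unc5b) among 14. Wnt, Notch and Hedgehog receptors split evenly, with 14 rises and 14 falls among 29, which became 7 and 14 with library totals alone.

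Il20ra, the ligand-binding subunit of the receptor for interleukins of the IL-20 family, had the largest rise (chr10:19711673-19760053). It had 0.459, 0.306 and 0.277 CPM at day 1 and 82.3, 84.3 and 95.7 at day 14. This was a 248-fold difference with no overlap (log2 change 7.96 ± 0.16, adjusted p = 1.0e-11). Its partner Il20rb was already at 151 ± 17.7 CPM at day 1 and rose to 436 ± 6.1. Il12rb2, a subunit of the interleukin 12 receptor, rose from 0.347 ± 0.174 to 40.5 ± 1.73 CPM. Other cytokine receptors, picked after their values were seen, were Il1r2 (15.1 to 172 CPM), a decoy for interleukin 1, Il4ra (9.55 to 73.8), Ifngr1 (37.5 to 247) and Osmr (24.6 to 108). Cytokine receptors that fell were led by Cntfr (40.5 to 2.43 CPM), with Lifr (215 to 89.2) and Ifnar1 (68.1 to 44.6) among the more abundant. Ifngr2, the other chain of the interferon gamma receptor, had 32.3 and 31.2 CPM and was not called.

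Tnfrsf11a, the receptor known as RANK, rose from 0.204 ± 0.139 to 18.4 ± 2.04 CPM, and Ngfr, the low-affinity neurotrophin receptor, from 1.72 ± 0.4 to 37.7 ± 6.4 CPM. Edar, the receptor for ectodysplasin that shapes hair placodes, went the other way (chr10:58600780-58675696). It had 54.6, 48.2 and 49.4 CPM at day 1 and 0.899, 1.13 and 0.458 at day 14, 60.7-fold less (adjusted p = 1.3e-06), with no overlap. Ptch1, a receptor and transcriptional target of Hedgehog signalling, fell from 538 to 82.7 CPM, and the co-receptors Gas1 and Cdon from 303 to 81.4 and 246 to 146, while the co-receptor Boc rose by 0.25 on the log2 scale. The signal transducer Smo had a log2 change of -0.15, also called. The changes of Boc and Smo were both smaller than the shift between scalings.

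**Figure D4:**
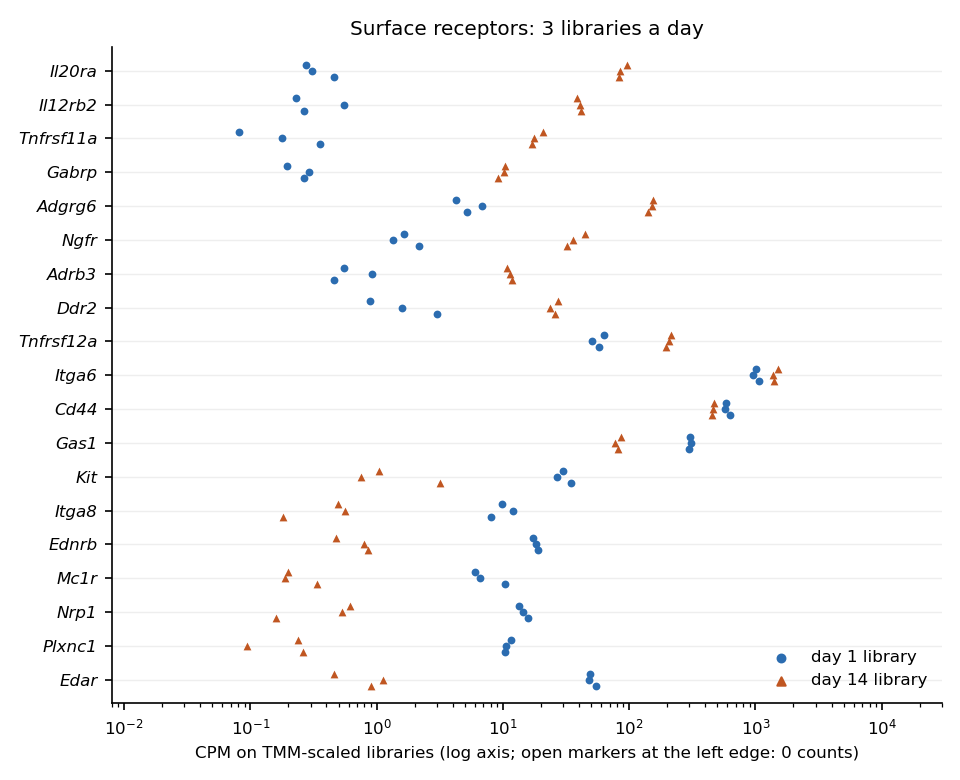
CPM of 19 surface receptors in each library of day 1 (blue circles) and day 14 (orange triangles) on a log axis, ordered by log2 change. The days do not overlap for any of the 19, with Il20ra at the top and Edar at the bottom.

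Among receptor tyrosine kinases 20 of 39 rose (51.3%, against 35.6% of all genes) and 12 fell (30.8%, against 38.4%), and 16 rose and 15 fell with library totals alone. Ddr2, a collagen receptor, rose from 1.82 ± 1.08 to 25.6 ± 1.99 CPM. Epha2 went from 116 to 808 CPM and Mst1r from 99.4 to 375, Fgfr3 from 362 to 708 and Egfr from 146 to 246, while Fgfr1 fell from 138 to 58.6 and Ror1 from 101 to 18.3 (these 6 were picked after their values were seen). The 4 called receptors with the highest mean TPM over both days were Itga6, Cd44, Gas1 and Tnfrsf12a. Itga6, the hemidesmosomal integrin of basal cells, had 646, 566 and 597 TPM at day 1 and 696, 696 and 768 at day 14. Cd44, the hyaluronan receptor, had 672, 603 and 609.8 TPM and then 398, 409.8 and 419.8. On library-scaled counts Itga6 rose 1.41-fold (adjusted p = 1.9e-06), Tnfrsf12a, a receptor of the Tnf family, rose 3.59-fold, and Cd44 and Gas1 fell 1.3-fold and 3.72-fold, with no overlap between the days.

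Of 101 other G protein-coupled receptors 51 rose (50.5%, against 35.6% of all genes tested) and 23 fell (22.8%, against 38.4%). Adgrg6, an adhesion receptor, rose from 5.44 ± 1.29 to 149 ± 8.06 CPM and the beta-3 adrenergic receptor Adrb3 from 0.643 ± 0.242 to 11.3 ± 0.479 CPM. Gabrp, an ion channel subunit of the GABA receptor family, rose from 0.25 ± 0.0491 to 9.89 ± 0.7 CPM. Among falls, Mc1r, Ednrb and Kit are receptors of pigment cells. Mc1r went from 7.64 ± 2.38 to 0.242 ± 0.0843 CPM, Ednrb from 18.2 ± 0.978 to 0.709 ± 0.204 and Kit from 30.4 ± 3.93 to 1.65 ± 1.31. They fell with the melanocyte markers, whose part was not tested. Nrp1, Plxnc1 and the integrin subunit Itga8 fell from means of 9.96 to 14.6 CPM to under 1 CPM.

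Secreted factors as a class rose and fell at shares near those of all genes, and the families within it differed in their counts. Of 743 on the list 405 were tested, 137 rose (33.8%) and 172 fell (42.5%), against 35.6% and 38.4% of all genes, and the median log2 change was -0.24. Structural matrix held many of the falls. Of 44 collagens and laminins 26 fell and 5 rose (Col17a1, Col20a1, Col23a1, Lama1 and Lama4), and of 60 other matrix proteins 32 fell and 13 rose. Ligands of the Egf family (7 rises and 1 fall, Egf, among 10), antimicrobial proteins (7 rises and falls of Rnase12 and S100a9 among 12) and cytokines (14 and 7 among 33) leaned upward. Cytokines and chemokines are small secreted proteins that direct leukocytes, and Egf ligands stimulate keratinocyte growth and migration.

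Among secreted factors of at least 5 CPM at 1 of the days, the largest fall was that of Igf2. Igf2 (chr7:142650768-142666816), the imprinted insulin-like growth factor of fetal growth, had 759, 387 and 693 CPM at day 1 and 1.56, 1.72 and 1.55 at day 14. Its day 1 libraries varied widely, and all lay far above day 14, 380.4-fold on average (log2 change -8.57 ± 0.60, adjusted p = 1.6e-05). Shh, the Hedgehog ligand of hair placodes and matrix, had 19.5, 18.6 and 18.4 CPM and then 0.759, 0 and 0.0597, with most of the remaining level in 1 day 14 library. Penk, the precursor of enkephalin peptides, had 41.3, 50.4 and 46.1 CPM at day 1 and 0.419, 0.471 and 0.318 at day 14, 113-fold less (adjusted p = 2.8e-12). The binding proteins Igfbp2 and Igfbp5 fell from 227 to 6.45 CPM and 82.1 to 2.65 CPM, while Igfbp3 rose from 175 to 1053 (all 3 picked after their values were seen).

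Matrix genes also fell by large factors. Fras1, which encodes an extracellular protein that holds the epidermis of the embryo to the dermis (chr5:96373777-96784733), had 347, 394 and 415 CPM at day 1 and 2.9, 2.77 and 3.02 at day 14. The difference was 133-fold (adjusted p = 1.0e-11), with no overlap. Its partners Frem1 and Frem2 fell from 14.6 to 0.287 CPM and 489 to 153 CPM. Vcan, a large proteoglycan, fell from 78.7 ± 8.07 to 1.17 ± 0.113 CPM, Col27a1 from 52.7 ± 4.26 to 0.593 ± 0.16 CPM, the metalloprotease Adamts18 from 10.8 ± 0.262 to 0.124 ± 0.00714 CPM and Nid2, a basement membrane linker, from 5.15 ± 0.352 to 0.0465 ± 0.0415 CPM. The basement membrane collagen chains Col4a1 and Col4a2 fell from 409 to 74.2 and 232 to 80.6 CPM, and periostin (Postn) from 1428 to 231. The laminin chain Lama3 fell from 632 to 421 CPM, and the chain Lamb3 was at 631 and 634 CPM, not called.

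Fibroblast RNA could add to matrix transcripts, and its levels are given here. Col1a1, the main collagen of fibroblasts, had 16.3, 4.42 and 2.12 CPM at day 1 and 8.97, 7.11 and 3.62 at day 14, which overlapped (adjusted p = 0.88). Without its highest library, number 4 of day 1, its log2 change turned from -0.22 to 0.99. Of the 7 tested genes on the fibroblast and stroma list, 2 rose (Gsn and Ly6c1), 1 fell (Mgp, from 1.16 to 0.318 CPM) and 4 were not called. The part of stromal RNA in the matrix falls was not tested.

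Of the factors that rose, Calcb and Apol7a had 0 counts in every day 1 library. Calcb, which encodes a neuropeptide of the calcitonin gene family, reached 18.8, 17.2 and 17.8 CPM, at least 380.4-fold higher, and Apol7a, an apolipoprotein L, 4.65, 5.73 and 5.79 CPM, at least 114-fold higher. Defb6, a beta-defensin, had 0.104, 0.627 and 0.146 CPM at day 1 and 50.4, 57.7 and 35.3 at day 14. It rose 165-fold with no overlap (adjusted p = 6.6e-06). Cxcl12, a chemokine, rose from 0.923 ± 0.381 to 35 ± 6.41 CPM, Wnt11 from 1.01 ± 0.101 to 24 ± 3.54 CPM and Cst6, a cysteine protease inhibitor, from 6.17 ± 1.71 to 106 ± 17.9 CPM. Lama1 rose from 2.02 ± 0.359 to 31.6 ± 3.29 CPM. Tnxb, an extracellular matrix protein, rose from 9.87 ± 0.623 to 479 ± 75.2 CPM. Tnxb overlaps another gene on the opposite strand, and the strand setting of the counting is not given, so its reads are uncertain.

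Of the 4 called secreted factors with the highest mean TPM over both days, Apoe, Col17a1 and Cyr61 rose and Cxcl14 fell. Col17a1, the hemidesmosomal collagen, went from 2129 ± 75 to 2552 ± 420.5 TPM, and Cyr61, a matrix-associated signalling protein, from 1084 ± 106 to 1735 ± 203 TPM. Cxcl14, a chemokine made by resting epithelia, had 994, 876 and 906 TPM at day 1 and 666, 616 and 626 at day 14, and fell 1.23-fold on library-scaled counts (adjusted p = 2.2e-04). Ccl27a, the keratinocyte chemokine for skin-homing T cells, rose from 52.6 ± 7.12 to 257 ± 19.9 CPM, and its reads may be shared with the near copy Ccl27b. Of the Egf ligands, Hbegf rose from 64.6 to 537 CPM and Epgn from 26.3 to 179. Among cytokines, Il33 rose from 11.8 to 96.5 CPM and Il34, a ligand of the receptor on which Langerhans cells depend, from 50.6 to 136, and of the Bmp ligands Bmp4 rose from 8.38 to 115 while Bmp7 fell from 169.9 to 48.1. Wnt ligands moved in both directions, with Wnt4 at 647 to 276 CPM and Wnt10b at 119 to 42.8, both lower, and Wnt3 at 152 to 247 and Wnt5a at 2.1 to 20.4, both higher. Ccl27a and the Egf, cytokine, Bmp and Wnt ligands named here were picked after their values were seen.

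**Figure D5:**
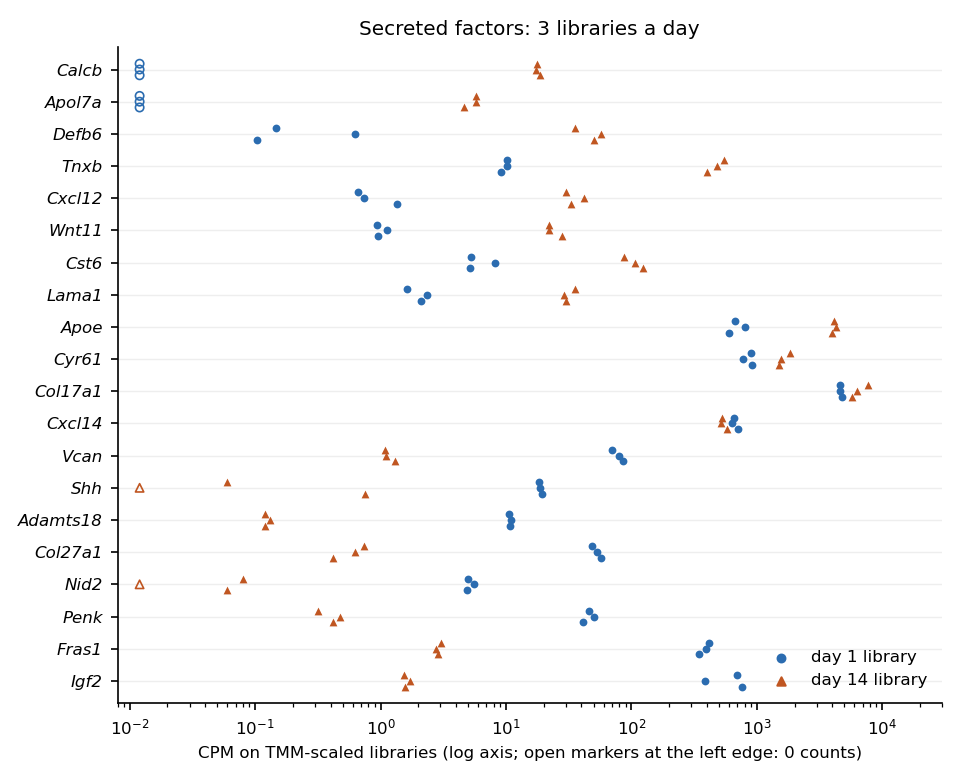
CPM of 20 secreted factors in each library of day 1 (blue circles) and day 14 (orange triangles) on a log axis, ordered by log2 change; open markers are libraries with 0 counts. Calcb and Apol7a have all 3 day 1 libraries at 0, and Igf2 and Fras1 lie at the bottom with the largest falls of the 20.

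Beyond these classes, nearly all genes of antigen presentation by class I molecules rose. These molecules carry peptides from inside the cell to its surface, where T cells read them, and consist of a heavy chain and beta-2 microglobulin. Of 21 listed genes 19 were tested and 18 rose (94.7%, against 35.6% of all genes tested), each by more than 2-fold, with a median log2 change of 3.52. H2-Q10 was not called. Their summed TPM was 530.2 to 573 at day 1 and 6209 to 7059 at day 14. H2-K1, a classical heavy chain, had 17.9, 22.5 and 23 CPM at day 1 and 1415, 1601 and 1609 at day 14, 72.9-fold more (log2 change 6.19 ± 0.13, adjusted p = 1.9e-10). B2m, the shared light chain, had 39.7, 42.5 and 41.4 CPM and then 815, 895 and 740.4, 19.8-fold more (adjusted p = 6.2e-10). Nlrc5, an activator of class I genes, rose from 3.47 to 142 CPM, and the immunoproteasome subunits Psmb8 and Psmb9 from 2.34 to 43.1 and 0.635 to 14.6. The leukocyte marker sums rose as well, from at most 12.04 to at most 36.0 TPM, and their part in the class I values was not tested.

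Because these genes rose together, the 250 bases before their transcription start sites were read from the RefSeq promoter table (build GRCm38.p6, the assembly also named mm10). It held a window for 16 of the 21 genes, without H2-Q9, H2-Q1, H2-T24, Nlrc5 and Tap2. The motif GGGATTCCC, of the NF-kB type and searched on both strands, was present in 4 of the 16 (H2-K1, H2-D1, H2-Q6 and H2-Q7) and in 0.301% of the 32851 windows of all genes. The interferon-type motif GAAANNGAA, searched on both strands, was present in 3 of the 16 (B2m, H2-T22 and H2-T23) and in 7.13% of all windows. A listed gene counted if any of its windows matched, while the percents are shares of windows (32851 windows of 27025 genes). The heavy chain genes resemble each other, as the H2-K1 and H2-Q6 windows below show, so their matches are not independent. Only these exact letters were searched, so a window without a match may still hold a variant of either site. A match describes the sequence and does not show that a factor binds. The windows of H2-K1 (chr17:34000348-34000597, minus strand) and H2-Q6 (chr17:35424600-35424849, plus strand) are shown with the first motif in capitals, and that of B2m (chr2:122147437-122147686, plus strand) with the interferon-type one in capitals, all 5′ to 3′ on the gene's strand.
H2-K1: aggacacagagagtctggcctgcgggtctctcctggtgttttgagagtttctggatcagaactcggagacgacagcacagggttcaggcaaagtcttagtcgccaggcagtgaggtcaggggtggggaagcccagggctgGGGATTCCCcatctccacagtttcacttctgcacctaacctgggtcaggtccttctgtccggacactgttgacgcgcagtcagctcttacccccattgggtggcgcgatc
H2-Q6: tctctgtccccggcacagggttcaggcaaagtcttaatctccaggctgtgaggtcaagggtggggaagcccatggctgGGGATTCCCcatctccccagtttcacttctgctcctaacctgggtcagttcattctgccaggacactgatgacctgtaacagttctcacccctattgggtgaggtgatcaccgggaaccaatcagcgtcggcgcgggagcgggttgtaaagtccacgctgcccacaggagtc
B2m: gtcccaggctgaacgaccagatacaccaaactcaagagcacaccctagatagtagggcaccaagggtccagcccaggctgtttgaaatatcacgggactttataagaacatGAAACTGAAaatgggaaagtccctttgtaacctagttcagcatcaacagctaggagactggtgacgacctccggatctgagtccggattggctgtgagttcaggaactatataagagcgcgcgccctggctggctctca
The first motif began 110 bases before the start site in H2-K1 and 172 in H2-Q6, and the motif of B2m began 139 bases before it.

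Most genes of barrier lipids and cell junctions rose, beside 35.6% of all genes tested. All 11 Skint genes rose, with a median log2 change of 4.91, and Skint7 had the highest level, at 14.2, 13.5 and 15.5 CPM at day 1 and 197, 187 and 221 at day 14. Skint genes resemble each other closely, so the values of single members are uncertain. Of 25 genes of barrier lipid synthesis 21 rose and 2 fell (Cers4 and Asah1), with the fatty acid elongase Elovl1 at 56.8 ± 3.26 to 116 ± 2.27 CPM and the lipoxygenase Alox12e at 14.3 ± 2.27 to 314 ± 60.9. Of 17 tight junction genes 12 rose and 1 fell (Cldn8), with claudin 1 (Cldn1) at 238 ± 21.2 to 522 ± 28.5 CPM and the adhesion molecule F11r at 134 ± 0.93 to 338 ± 12.8. Desmosome and adhesion genes had 12 rises and 5 falls (Cdh3, Ctnnb1, Dsc2, Dsg2 and Pkp2) among 18, with Jup, which encodes plakoglobin, at 1130.1 ± 48.6 to 2030.5 ± 15.8 CPM among the rises.

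Of 38 proliferation genes 35 fell (92.1%, against 38.4% of all genes tested) and 1 rose (2.63%, against 35.6%), with a median log2 change of -1.06. The same shares of all genes stand beside each list of this paragraph. Mki67, a marker of cycling cells, had 420.1, 460.5 and 429.5 CPM at day 1 and 239, 239 and 253 at day 14, 1.79-fold less (adjusted p = 9.0e-09). Pcna was the gene that rose, by 0.14 on the log2 scale, and its direction turned with library totals alone. The Pcna call was also lost with no filter, autosomal genes alone and the replicate block (adjusted p from 0.0571 to 0.0749), and without number 5 or 6 of day 1 or number 4 or 6 of day 14 (adjusted p from 0.104 to 0.196). All 7 tested oncofetal genes fell, with Igf2bp3 at 105 ± 6.24 to 41.3 ± 1.11 CPM, and 12 of 17 tested imprinted growth genes fell and none rose, with the amino acid transporter Slc38a4 at 359.5 ± 21.6 to 50.6 ± 6.1 CPM. Hmga1, the smallest of these falls, lost its call with RLE factors, DESeq2 and the replicate block (adjusted p from 0.0578 to 0.0757) and without any 1 library other than number 6 of day 1 (adjusted p from 0.053 to 0.103). Of 76 genes of oxidative phosphorylation 48 fell and 4 rose (Atp5s, Ndufa6, Ndufb3 and Ndufv3), with a small median log2 change of -0.23 and Atp5b at 1209.5 ± 23.5 to 925 ± 7.16 CPM. Cytosolic ribosomal protein genes were close to level, with 25 rises and 5 falls (Rpl26, Rpl29, Rpl41, Rps4l and Rps6) among 77 and changes from -0.95 to 0.28. Their share of rises (32.5%) was near that of all genes, and there was no rise and 61 falls with library totals alone.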

How the data were processed

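RNA of sorted CD45.2-negative skin cells was sequenced from 9 C57BL/6 libraries, 3 per age. The authors deposited whole-number read counts per gene, per the file headers. The 18 deposited columns of FPKM and TPM were not used. The submitters' processing notes name bcl2fastq 2.20.0, Trimmomatic, HISAT2 2.1.0, StringTie 1.3.4d and mm10. The strand setting and the counter are not named there or in the labels, so antisense overlaps cannot be told apart. Genes were placed on chromosomes through RefSeq (GRCm38.p6), which matched 24462 of 24532 gene IDs. The 3 libraries headed D0 were taken as postnatal day 1.

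Counts were filtered with filterByExpr, scaled with TMM factors (day 1, 1.077 to 1.096; day 14, 0.894 to 0.910) and fitted across all 9 libraries with day as the factor, using edgeR's robust quasi-likelihood test (edgeR 4.0.16, limma 3.58.1, R 4.3.3). Benjamini-Hochberg adjustment covered the 14507 genes tested, 14011 of them autosomal, and genes under an adjusted p of 0.05 were called. CPM are on TMM-scaled libraries and are given as mean ± SD over 3 libraries, log2 changes as day 14 minus day 1 ± SE. TPM (transcripts per 1000000) were computed from the counts over the median length of each gene's transcripts in GENCODE M21 and used for ranks and for levels between genes. A length was found for 24095 genes with 99.5% to 99.7% of the reads. TPM are not TMM-scaled, so their ratios differ from fitted changes, and ranks depend on the lengths. Folds against 0 counts were taken against 3 counts per library. SD and SE include the variation between libraries, and the floor of 3 counts covers counting error only. The main edgeR test was also tried on simulated counts of 14280 genes, with 100 changed by 1.5-fold and 100 by 2-fold. It recovered 75% and 85% of these, with 11 false calls. The alternative tests were not tried in this way.

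Genes named are the top 20 by TPM at each day, the 10 largest rises and falls of at least 10 CPM with no overlap (at most 2 per family), the 8 largest rises and falls of at least 5 CPM and the 4 called members of highest TPM in each class, the 2 called members of highest TPM in other lists, and a few markers, and a few genes that this rule selects are not reported here. Other genes given with values were picked after their values were seen. The contrast, members and lists were chosen with earlier results of these data known. Replicate numbers in the headers did not pair the libraries. No 2 libraries agreed within sampling noise. Alternatives were RLE factors, library totals alone, no filter, DESeq2 1.42.0, limma-voom, 6 libraries, autosomal genes alone, a test against a fold of 1.5, a block on replicate number, and leaving out each library.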

Additional observations from a re-analysis of the deposited data

How the results depend on the processing

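Counts of calls stayed within 1.5 times of those reported under other scalings, no filter, DESeq2, limma-voom, 6 libraries, autosomal genes alone and the replicate block (4736 higher and 5114 lower with the block, against 4988 and 5382). Tested against a fold of 1.5, 2550 autosomal genes were higher and 2344 lower, with 152 and 98 transcription factors and 71 receptors lower, since small changes no longer count. Leaving out each library in turn gave 4729 to 4794 higher and 5181 to 5277 lower. Replicate numbers did not pair libraries (correlations of deviations 0.014, 0.011 and 0.104), and 1 of the 3 numbers correlated best with itself. With library totals alone the log2 changes of Lgals7 (-0.093), Rps9 (-0.273), Ptma (-0.157), Rplp0 (-0.114), Rps24 (-0.155), Rps18 (-0.216), Rplp1 (-0.019), Pkm (-0.13) and Pcna (-0.129) turned, and the calls leaned further toward falls (3532 higher and 7487 lower), because that scaling lowers every day 14 value relative to day 1. Rps9, near 0, also turned without the filter (-0.013), with 6 libraries (-0.001), with autosomal genes alone (-0.007) and without single libraries (-0.057 to 0.066). Col1a1 turned with limma-voom (0.152), with the block (0.138) and without single libraries (-0.67 to 0.994). For these 2 genes the cause was not tested. The top 20 held 9.73% and 9.07% of counts in place of TPM at days 1 and 14, and the top 100 held 31.8% and 30.8% of TPM. Counting depth limits only genes of a few reads, and animals, sex, sort yield and hour of collection cannot be told apart from age.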

Other observations

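The counts below stand beside 35.6% of all genes tested that rose and 38.4% that fell. Of 24 genes of glycolysis and hypoxia 15 rose (62.5%) and 1 fell (Gapdh), with a median log2 change of 0.26, and with library totals alone 9 rose and 8 fell. Of 19 cholesterol synthesis genes 9 rose (47.4%) and 8 fell (42.1%), and 7 and 9 with library totals alone. Of 7 markers of the outer root sheath and follicle stem cells 4 fell (Krt16, Krt17, Krt6a and Krt6b) and 2 rose (Krt75 and Krt79), and their summed TPM was 3341 to 3533 at day 1 and 2057 to 2614 at day 14. Of 5 tested Merkel cell markers 3 fell (Krt20, Krt8 and Piezo2) and none rose, with Krt8 at 2.77 to 0.793 CPM. Langerhans and class II markers summed to 30.1 to 33.2 TPM at day 1 and to 71.5 to 74.4 at day 14, 5 of 6 rose and 1 fell (Mfge8), and Cd207, which encodes langerin, went from 0 counts in every day 1 library to 1.28, 0.867 and 0.677 CPM, at least 19.9-fold higher.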
